A study of Mus musculus with 2 samples.

Results

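Genes of potassium channels that are carried by glia and by mural cells of the dorsal root ganglion (DRG) were followed in single-cell RNA-seq. They are 8 of the 32285 genes in the feature table, *Kcnj10*, *Kcnj16*, *Kcnj8*, *Kcna1*, *Kcna2*, *Kcna6*, *Kcnq5* and *Kcnh8*. Their rows were found by symbol, and each symbol matched 1 row. These members were chosen with earlier results of these data known, so counts over them are a description. Both samples were L4-L5 DRGs of naive C57BL/6 female mice of 3 months, without transgene or agent, and live cells were sorted before loading. How many animals each sample holds is not given in the sources used here, so p-values measure the spread between these 2 samples. For each gene this spread is pooled over all 8 cell types in 1 fit. A p-value for 2 types thus also carries the scatter of the others. Unique molecular identifiers (UMIs), the counted transcripts, were summed per sample and cell type and divided by the total of that profile (CPM), with TMM scaling for differences in composition. Cell types rather than conditions are compared, and values are given as replicate 1 and replicate 2.

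Glia take up the potassium that active axons and cell bodies release, and inward rectifiers of the Kir family carry much of this flux. *Kcnj10* encodes Kir4.1, a channel of astrocytes and of satellite glial cells (SGCs), and *Kcnj16* encodes a Kir subunit that forms mixed channels with it. *Kcnj8* encodes the pore of the vascular ATP-sensitive channel, whose sulfonylurea receptor subunit is the product of *Abcc9*. *Kcna1*, *Kcna2* and *Kcna6* encode voltage-gated subunits of the Kv1 family, known from the juxtaparanodes of myelinated axons, *Kcnq5* encodes an M-current subunit and *Kcnh8* an Elk-type voltage-gated subunit.

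After filtering, 16084 cells were retained, 7995 in replicate 1 and 8089 in replicate 2, and 14111 of them lay in clusters that took a name from fixed markers. All genes of the potassium channel list were kept out of the clustering, and no marker is a potassium channel gene. The named types were 6720 SGCs, 3149 myelinating Schwann cells (mSCs), 1356 non-myelinating Schwann cells (nmSCs), 1284 fibroblasts, 706 mural cells, 434 endothelial cells, 353 macrophages and 109 neurons. The files held 119101743 and 128668771 UMIs, and the samples shared 134 cell barcodes. The sums of the markers followed these names: the 11 myelinating markers summed to 49554 and 51413 CPM in mSCs and to 3491 CPM in each nmSC profile, and the 10 mural markers summed to 20302 and 21777 CPM in mural cells and to 83.0 and 88.9 CPM in SGCs. The neurons were few, held a median of 102132 UMIs per cell and formed a cluster led by *Tac1* and *Calca*, markers of peptidergic neurons. Whether other sensory neurons lie in it was not tested, and values for neurons concern these deep cells. Sums marking other classes were not at 0 within glia: the 10 SGC markers without *Apoe* gave 17573 and 18159 CPM in SGCs and still 6909 and 6760 CPM in nmSCs.

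*Kcnj10* was highest in SGCs, at 254 and 247 CPM (12261 and 12088 UMIs), with a mean of 250.5 ± 5.14 CPM (SD, n = 2). In nmSCs it stood at 107 and 104 CPM, and in mSCs at 34.0 and 34.8 CPM. The 3 glial types therefore did not overlap in either direction. Macrophages gave 42.1 and 38.4 CPM, between nmSCs and mSCs, and in macrophages the SGC markers without *Apoe* summed to 1457 and 1990 CPM, whose part in this value was not tested. Neurons, mural cells, fibroblasts and endothelial cells ranged from 9.12 to 24.3 CPM and overlapped with one another. In these types the SGC markers without *Apoe* summed to between 700 and 1170 CPM, against 17573 and 18159 CPM in SGCs. The part of SGC RNA in these low *Kcnj10* values was not tested either. RNA of empty droplets held 155 and 154 CPM of *Kcnj10*, and the markers of other classes allowed at most 6.38 CPM of it in any profile of a named type. This limit covers RNA of empty droplets only.

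*Kcnj16*, the partner subunit, followed the same order at its top, with 42.3 and 39.6 CPM in SGCs and 7.47 and 7.82 CPM in nmSCs. In mSCs only 9 and 4 UMIs were counted, or 1.04 and 0.42 CPM. Macrophages gave 3.92 and 5.73 CPM, and the other 4 types between 0.66 and 2.80 CPM, where their ranges overlapped. *Kcnj16* was thus lower in mSCs than in nmSCs in both replicates, while its range in mSCs overlapped that of endothelial cells, the next type in the order.

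The 3 Kv1 members had their highest levels in Schwann cells, each with a different split between the types. *Kcna1* stood at 1410 and 1511 CPM in mSCs and at 1194 and 1352 CPM in nmSCs, far above the 93.5 and 97.7 CPM of SGCs. The 2 Schwann types did not overlap for *Kcna1*, yet their difference was within the error of the test given below. That error is pooled over all 8 types. *Kcna2* was highest in nmSCs, at 454 and 458 CPM, followed by mSCs at 302 and 293 CPM, SGCs at 91.8 and 85.4 CPM and neurons at 81.2 and 79.4 CPM. *Kcna6* was also highest in nmSCs, at 367 and 356 CPM, but here SGCs came next at 119 and 114 CPM, then neurons at 39.2 and 55.1 CPM and mSCs at 29.9 and 28.9 CPM. For *Kcna1* the replicates of neurons were far apart, at 6.75 and 26.6 CPM from 40 and 152 UMIs, and those of macrophages too, at 38.2 and 74.4 CPM. Vascular cells and fibroblasts held between 7.08 and 38.0 CPM of any of the 3.

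*Kcnh8* separated nmSCs and SGCs from the other cells. It was measured at 605 and 620 CPM in nmSCs and at 444 and 413 CPM in SGCs, from 21428 and 20245 UMIs. In mSCs it stood at 51.3 and 57.6 CPM, within the range of macrophages and neurons, whose replicates gave 49.9 and 73.3 CPM and 80.7 and 34.3 CPM. Mural cells, fibroblasts and endothelial cells overlapped between 21.3 and 28.6 CPM.

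*Kcnq5* was shared by nmSCs, mural cells and neurons. It was found at 266 and 258 CPM in nmSCs, at 258 and 171 CPM in mural cells and at 153.4 and 152.5 CPM in neurons. The replicates of nmSCs and mural cells lay side by side without overlap, and the mural replicates differed by more than those of the other types, with an SD of 61.1 CPM. Fibroblasts held 21.8 and 16.7 CPM, and SGCs, mSCs, endothelial cells and macrophages between 1.96 and 8.14 CPM.

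*Kcnj8* was found almost entirely in mural cells, at 165 and 140 CPM (583 and 426 UMIs). Endothelial cells held 9.30 and 9.27 CPM and fibroblasts 1.82 and 1.16 CPM, so that these 3 types did not overlap. In the glia 7 and 2 UMIs were counted in SGCs, 5 and 2 in mSCs and 2 and 0 in nmSCs. No UMI was counted in neurons or macrophages in either replicate. Its receptor subunit *Abcc9* had the same order, with 206 and 162 CPM in mural cells, 9.56 and 9.72 CPM in endothelial cells and 6.01 and 3.00 CPM in fibroblasts.

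**Figure D1:**
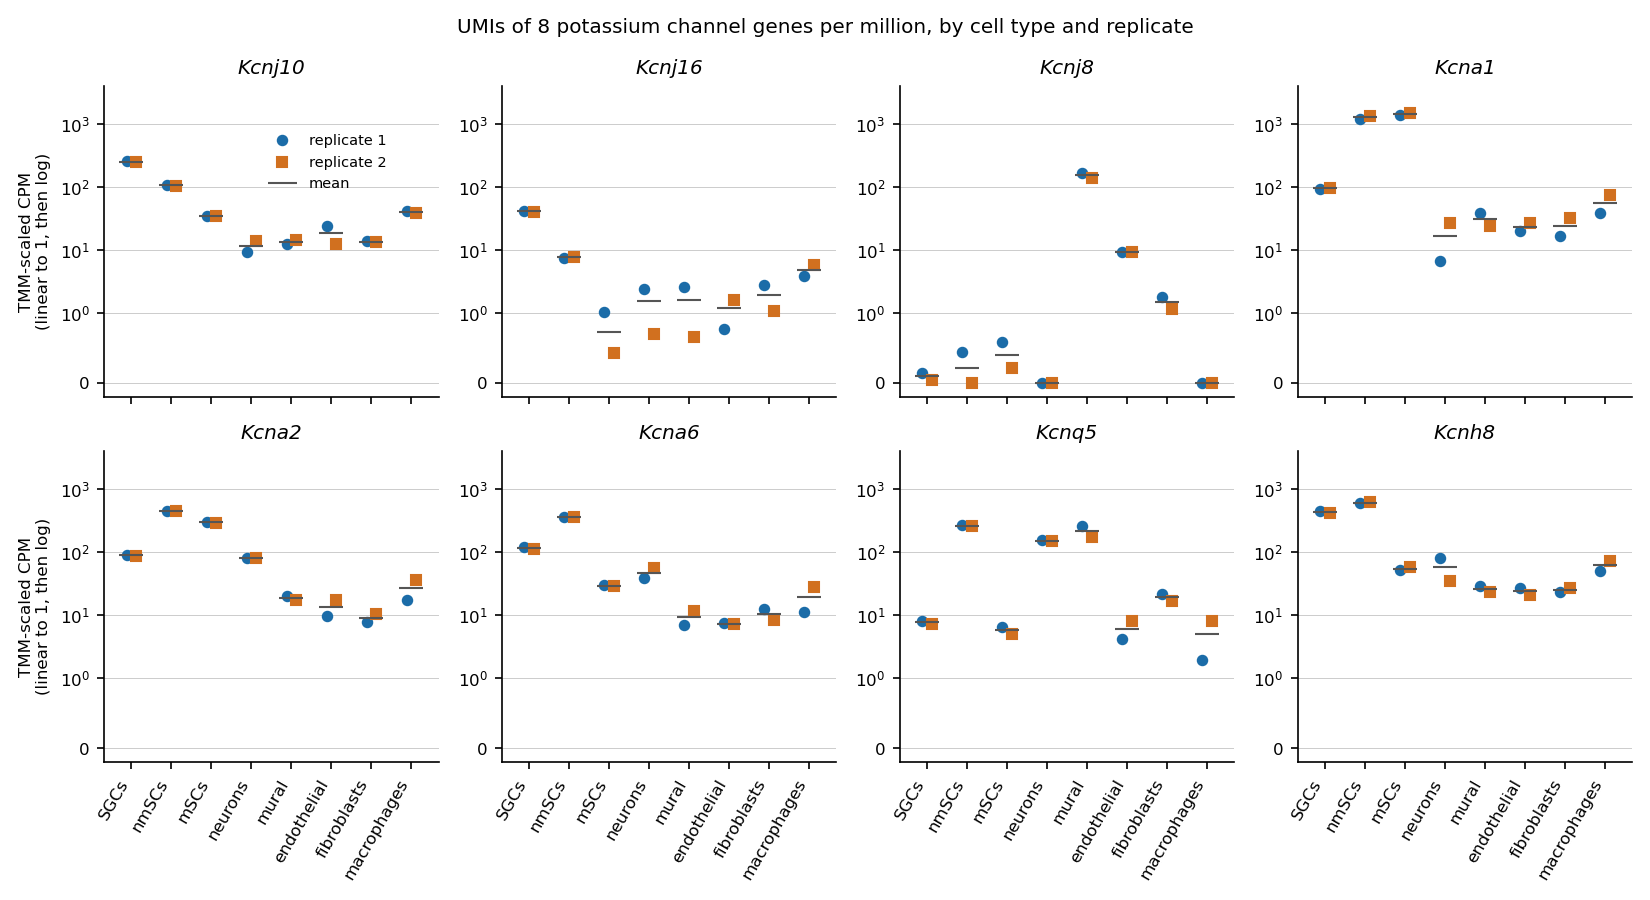
Levels of the 8 genes by cell type, 1 panel per gene, in TMM-scaled CPM on an axis that is linear up to 1 and logarithmic above; circles are replicate 1, squares replicate 2 and bars their mean. *Kcnj10* and *Kcnj16* peak in SGCs, *Kcnj8* in mural cells, *Kcna1* in both Schwann types, and *Kcnq5* is high in nmSCs, mural cells and neurons.

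*Kcnj8* and *Abcc9* are neighbours on the minus strand of mouse chromosome 6, with 16248 bases between them in GENCODE M21 on GRCm38, where *Kcnj8* spans chr6:142564837-142571614. *Kcna1* (chr6:126640397-126646384) and *Kcna6* (chr6:126708329-126740674) lie on the same strand of that chromosome with 61945 bases between them. *Kcnj10* spans chr1:172341210-172374085 on the plus strand. The 250 bases before the start of *Kcnj10*, as the gene of SGCs, and of the mural pair *Kcnj8* and *Abcc9* are shown from RefSeq on GRCm38.p6, 5′ to 3′ on the strand of the gene. They are chr1:172340960-172341209 (plus), chr6:142571615-142571864 (minus) and chr6:142702275-142702524 (minus), and capitals mark a motif.
Kcnj10: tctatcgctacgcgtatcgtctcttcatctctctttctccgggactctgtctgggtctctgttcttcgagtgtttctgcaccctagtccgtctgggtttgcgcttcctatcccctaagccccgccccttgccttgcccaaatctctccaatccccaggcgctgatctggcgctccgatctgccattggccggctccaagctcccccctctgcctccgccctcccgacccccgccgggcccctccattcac
Kcnj8: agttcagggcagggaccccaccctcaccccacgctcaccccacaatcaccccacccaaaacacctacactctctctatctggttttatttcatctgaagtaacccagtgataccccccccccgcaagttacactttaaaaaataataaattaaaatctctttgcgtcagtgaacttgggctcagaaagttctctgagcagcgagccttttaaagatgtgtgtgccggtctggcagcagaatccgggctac
Abcc9: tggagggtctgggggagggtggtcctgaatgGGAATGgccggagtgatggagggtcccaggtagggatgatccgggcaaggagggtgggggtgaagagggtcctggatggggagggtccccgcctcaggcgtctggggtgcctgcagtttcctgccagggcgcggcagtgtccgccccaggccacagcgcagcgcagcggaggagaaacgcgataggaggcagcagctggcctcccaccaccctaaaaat
The hexamers searched on both strands were ACAAAG and ACAATG, forms of the SOX motif, and CATTCC, the TEAD motif. *Abcc9* held 1 CATTCC, on the other strand, and *Kcnj10* and *Kcnj8* held none of the 3. Of 32851 RefSeq promoters, 16.5% held ACAAAG, 10.7% ACAATG and 12.6% CATTCC within the same length.

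The types were then compared in 1 edgeR quasi-likelihood fit over 17834 genes and all 8 types, with Benjamini-Hochberg adjustment within each comparison and an adjusted p of 0.05 as the threshold. All 8 members entered the fit. Between SGCs and nmSCs, *Kcnj10* was 2.38-fold higher in SGCs (log2 difference 1.25 ± 0.13, SE, adjusted p = 6.94e-07) and *Kcnj16* 5.34-fold (2.42 ± 0.26, adjusted p = 8.84e-07). The 3 Kv1 genes and *Kcnq5* were higher in nmSCs, *Kcna1* 13.3-fold (log2 difference -3.73 ± 0.30, adjusted p = 3.17e-08), *Kcna2* 5.14-fold, *Kcna6* 3.10-fold and *Kcnq5* 34.1-fold. The 2 Kir genes and these 4 voltage-gated genes thus went in opposite directions between these glia. *Kcnh8* was 1.43-fold higher in nmSCs, a difference of -0.51 ± 0.20 that missed the threshold at an adjusted p of 0.0618. With the replicate as a block the same difference was -0.52 with an adjusted p of 0.0363, so its call depends on the fit. In all, 2 members were higher and 4 lower in SGCs, beside 19% of all tested genes higher and 13.6% lower.

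Against mSCs, the same Kir genes were higher in SGCs, *Kcnj10* 7.27-fold (log2 difference 2.86 ± 0.14, adjusted p = 1.34e-11) and *Kcnj16* by 5.81 ± 0.35 on the log2 scale (adjusted p = 1.84e-10), where mSCs held 9 and 4 UMIs. Without replicate 1 this difference was 6.51 and without replicate 2 it was 5.33. *Kcnh8* was 7.87-fold higher (2.98 ± 0.23, adjusted p = 4.84e-09) and *Kcna6* 3.97-fold (1.99 ± 0.17, adjusted p = 1.91e-08). *Kcna1* was 15.3-fold and *Kcna2* 3.36-fold lower in SGCs. *Kcnq5*, low in both, did not pass (0.41 ± 0.27, adjusted p = 0.217), though it did at a resolution of 0.4 (0.89, adjusted p = 0.0074). These are 4 members higher and 2 lower in SGCs, beside 26.9% and 23.4% of all tested genes. With the replicate as a block *Kcnj8*, at no more than 7 UMIs in any of these profiles, also passed as lower in SGCs (-1.94, adjusted p = 0.0403, against 0.0561 without the block).

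The comparison of the Schwann types showed no member higher in mSCs. *Kcna6* was 12.3-fold (log2 difference -3.62 ± 0.17, adjusted p = 2.49e-11), *Kcnq5* 45.5-fold (-5.51 ± 0.23, adjusted p = 4.63e-12) and *Kcnh8* 11.2-fold lower in mSCs than in nmSCs (-3.49 ± 0.23, adjusted p = 1.38e-09). *Kcnj10* was 3.06-fold and *Kcnj16* 10.5-fold lower, and *Kcna2* 1.53-fold (-0.62 ± 0.13, adjusted p = 0.00141). For *Kcnj16* the log2 difference was -4.17 without replicate 1 and -2.83 without replicate 2. *Kcna1* alone among the 7 members of glia did not pass, with 0.20 ± 0.27 (adjusted p = 0.634). Of all tested genes 18% were higher and 17.9% lower in mSCs, beside 0 and 6 of the 8 members.

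**Figure D2:**
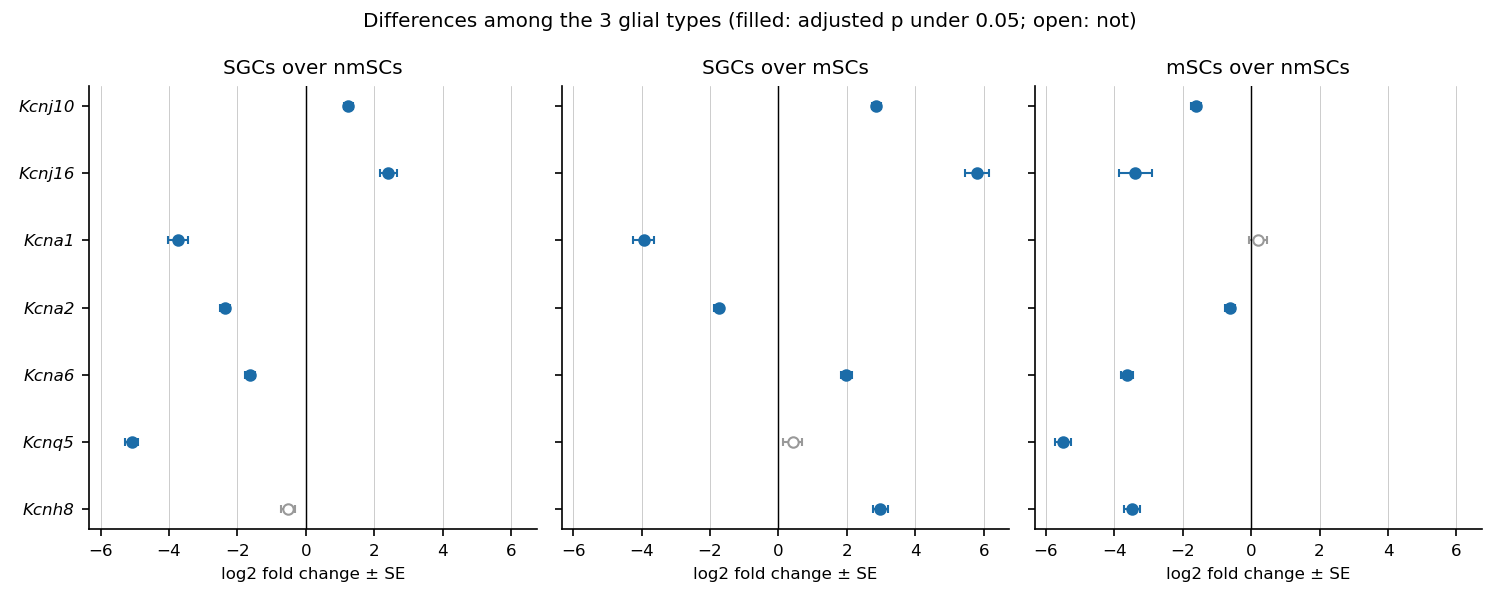
Log2 differences of 7 genes between the 3 glial types from edgeR, with bars for the SE; filled points passed an adjusted p of 0.05 and open points did not. The Kir genes lie to the right in both comparisons of SGCs, while *Kcna1* lies far to the left in both and near 0 between mSCs and nmSCs.

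Mural cells were set against endothelial cells, the other cells of the vessel wall, and against fibroblasts. *Kcnj8* was 16.4-fold higher in mural than in endothelial cells (log2 difference 4.04 ± 0.22, adjusted p = 4.37e-10) and *Kcnq5* 34.3-fold (5.10 ± 0.26, adjusted p = 3.25e-11). The other 6 members did not pass, and no member was lower, beside 21% of all tested genes higher and 21.4% lower in mural cells. Against fibroblasts *Kcnj8* was higher by 6.72 ± 0.26 on the log2 scale (adjusted p = 1.19e-11) and *Kcnq5* 11.3-fold (3.50 ± 0.20, adjusted p = 1.62e-10). *Kcna2* passed as well, at 18.8 CPM in mural cells and 9.06 CPM in fibroblasts, which makes 3 members higher and 0 lower beside 17.7% and 21% of all tested genes. The log2 difference of *Kcnq5* from endothelial cells was 4.37 without replicate 1 and 5.96 without replicate 2.

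Between mural cells and SGCs every member passed. *Kcnj8* (log2 difference 10.52 ± 0.29, adjusted p = 7.14e-14) and *Kcnq5* (28.0-fold, 4.81 ± 0.19, adjusted p = 5.32e-13) were higher in mural cells, and the other 6 higher in SGCs. The 6 ranged from *Kcna1* with 3.05-fold (-1.61 ± 0.36, adjusted p = 0.001) to *Kcnj16* with 24.3-fold (-4.60 ± 0.39, adjusted p = 1.36e-08). Of all tested genes 23.5% were higher and 26.2% lower in mural cells. Low counts lie behind some of these values: *Kcnj8*, with 7 and 2 UMIs in SGCs, differed by 11.38 without replicate 1 and by 10.04 without replicate 2, and *Kcnj16*, with 9 and 2 UMIs in mural cells, by -5.90 and -4.04.

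The glia were then set against the neurons. In SGCs *Kcnj10* was 22.0-fold higher (log2 difference 4.46 ± 0.17, adjusted p = 1.75e-13) and *Kcnj16* 26.3-fold (4.72 ± 0.33, adjusted p = 8.22e-10). *Kcnh8*, *Kcna1* and *Kcna6* were higher in SGCs as well, while *Kcna2* did not pass at 88.6 against 80.3 CPM (0.14 ± 0.14, adjusted p = 0.403). *Kcnq5* was 19.9-fold higher in neurons than in SGCs and 26.6-fold higher than in mSCs, but 1.71-fold lower in neurons than in nmSCs (0.77 ± 0.16, adjusted p = 0.000532). *Kcna1* was higher in mSCs by 6.46 ± 0.38 and in nmSCs by 6.26 ± 0.38 on the log2 scale. *Kcna6* was 7.67-fold higher in nmSCs than in neurons and 1.60-fold lower in mSCs than in neurons (adjusted p = 0.00409). *Kcnh8* was 10.6-fold higher in nmSCs and did not differ past the threshold in mSCs (-0.08 ± 0.24, adjusted p = 0.791). The neuron profiles differ for some members, and the log2 differences moved with the sample left out. Without replicate 1 and without replicate 2, *Kcna1* gave 1.89 and 3.79 for SGCs, 5.84 and 7.70 for mSCs, and 5.67 and 7.46 for nmSCs. *Kcnh8* gave 3.60 and 2.46 for SGCs, 4.18 and 2.91 for nmSCs, and 0.76 and -0.65 for mSCs, where its direction turned. *Kcnj16* gave 5.81 and 4.15 for SGCs.

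Counted over members, SGCs had 5 higher and 1 lower than neurons, mSCs 4 and 2, and nmSCs 7 and 0. Among the 4 in mSCs was *Kcnj8*, from 7 UMIs in mSCs and 0 in neurons (adjusted p = 0.0438). The shares of all tested genes were 32.1% higher and 34.3% lower for SGCs, 30.8% and 35.6% for mSCs, and 28.2% and 33.8% for nmSCs. Since the members were chosen with earlier results of these data known, an excess over these shares is no test of them as a set.

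The wider list holds 101 genes, every symbol beginning with Kcn together with *Abcc8* and *Abcc9*, of which 81 were tested. Between SGCs and nmSCs 15 were higher in SGCs (18.5%) and 14 lower (17.3%), beside 19% and 13.6% of all tested genes, with a median log2 difference of 0.28 beside 0.06 over all genes. With DESeq2, which changes the scaling and the test together, the split was 12 and 18. Of the called genes, 40% of the list and 50.1% of all genes were then higher in SGCs. With edgeR these shares were 51.7% and 58.4%, so the list moved together with all genes. In edgeR the list genes that led in SGCs were *Kcnk2*, a channel of the K2P family, at 66.0 and 63.4 CPM (10.1-fold higher than in nmSCs), and *Kcnn4*, a calcium-activated channel, at 188 and 184 CPM (3.27-fold). In nmSCs the K2P gene *Kcnk13* stood at 88.1 and 99.96 CPM (4.80-fold higher), followed by the calcium-activated *Kcnn2* and *Kcnma1*.

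Against mSCs, 24 genes of the list were higher in SGCs (29.6%) and 19 lower (23.5%), near the 26.9% and 23.4% of all tested genes, with medians of 0 for the list and 0.01 over all genes. *Kcnk1*, another K2P gene, stood in mSCs at 159 and 170 CPM against 2.42 and 1.57 CPM in nmSCs (83.2-fold, log2 difference 6.38 ± 0.25, adjusted p = 2.46e-12). Between the Schwann types 8 genes were higher (9.88%) and 21 lower (25.9%) in mSCs, beside 18% and 17.9% of all tested genes. Those lower included *Kcnma1*, *Kcnn2*, *Kcnip1* and *Kcnn4*, each at most 5.06 CPM in mSCs.

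In mural cells, against endothelial cells 22 genes were higher (27.2%) and 4 lower (4.94%), beside 21% and 21.4% of all tested genes (medians 0.47 and 0.00). Against fibroblasts 21 were higher (25.9%) and 16 lower (19.8%), beside 17.7% and 21% (medians 0.17 and -0.05). Against SGCs 25 were higher (30.9%) and 21 lower (25.9%), beside 23.5% and 26.2%. Of the 14 tested inward rectifiers and sulfonylurea receptors, 5 were higher and 1 lower than in endothelial cells, where 21% of all tested genes were higher and 21.4% lower. *Abcc8*, the other sulfonylurea receptor, stood at 21.8 and 31.9 CPM in mural cells and at 0.26 and 0.23 CPM in endothelial cells. *Kcnab1*, a Kv beta subunit, reached 914 and 1032 CPM in mural cells (105-fold higher than in endothelial cells), *Kcna5*, a Kv1 gene of smooth muscle, 48.2 and 44.4 CPM, and *Kcnmb1*, the beta subunit of the calcium-activated BK channel of smooth muscle, 24.9 and 27.3 CPM. *Kcnt2*, a sodium-activated channel gene, stood at 319 and 269.6 CPM and *Kcnk3* at 66.3 and 77.7 CPM. Endothelial cells instead held *Kcnn2* at 259 and 154 CPM and *Kcnq1* at 39.8 and 51.6 CPM.

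Neurons held most genes of the list at higher levels than glia. SGCs had 15 higher (18.5%) and 60 lower (74.1%), beside 32.1% and 34.3% of all tested genes (medians -4.32 for the list and 0.04 over all genes). In mSCs 12 were higher and 59 lower (72.8%, beside 35.6%), and in nmSCs 14 and 54 (66.7%, beside 33.8%). The Kv families outside Kv1, Kcnq and Kcnh, counted together with the *Kcnip* genes, had 20 tested genes. All 20 were lower in each of the 3 glial types, among them *Kcnb2* at 1507 and 1447 CPM in neurons and 0.99 and 1.67 CPM in SGCs. *Kcnj10*, *Kcnj16*, *Kcna1*, *Kcna6* and *Kcnh8* were 5 of the 15 genes higher in SGCs.

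Genes whose proteins assemble with Kv1 channels were listed apart, 15 in number and all tested. SGCs had 4 higher and 6 lower than nmSCs (median log2 difference -0.48), beside 19% and 13.6% of all tested genes, and mSCs 1 higher and 7 lower than nmSCs (median -1.14), beside 18% and 17.9%. *Adam23*, a membrane partner of the LGI ligands, stood at 649 CPM in nmSCs, 49.2 CPM in SGCs and 43.2 CPM in mSCs (nmSCs over SGCs, 13.2-fold, adjusted p = 5.46e-10). *Lgi4*, a secreted ligand of the ADAM receptors that acts in Schwann cell myelination, stood at 396 CPM in nmSCs, 199.9 CPM in SGCs and 101 CPM in mSCs. *Cntnap2* and *Cntn2*, which hold Kv1 channels at juxtaparanodes, did not exceed 4.02 CPM in any of these glia.

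For the Kir channel of glia, 6 genes of the dystrophin complex and aquaporin were listed, since this complex anchors Kir4.1 at astrocyte endfeet. SGCs had 2 higher and 3 lower than nmSCs, beside 19% and 13.6% of all tested genes. *Aqp4*, the water channel, stood at 49.1 CPM in SGCs, 1.94 CPM in nmSCs and 1.09 CPM in mSCs (SGCs over nmSCs, 24.9-fold, 4.64 ± 0.27, adjusted p = 5.97e-10). *Utrn*, the dystrophin relative utrophin, was lower in SGCs, at 441 CPM against 1391 and 1742 CPM in nmSCs and mSCs. *Dmd*, encoding dystrophin, was 11.1-fold higher in mural than in endothelial cells, at 1857 against 168 CPM, and 5 of the 6 genes were higher there, beside 21% of all tested genes.

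Within mural cells and nmSCs, levels were read in the clusters of a finer clustering. These clusters were cut from the same cells, so the values are a description with no test, in CPM within a cluster without TMM scaling. Mural cells split into a cluster led by *Rgs5*, a pericyte gene, with 192 and 137 cells, and one led by *Acta2*, smooth muscle actin, with 165 and 157 cells. *Kcnj8* stood at 344 and 335 CPM in the first and at 6.75 and 13.6 CPM in the second. *Abcc9* stood at 370 and 387 CPM against 9.82 and 17.5 CPM, and *Kcnq5* at 544 and 414 CPM against 39.9 and 43.3 CPM. The smooth muscle gene *Myh11* had the opposite order, at 578 and 575 CPM against 3100 and 2904 CPM. *Rgs5* itself was high in both, at 9036 and 8941 CPM against 4377 and 6431 CPM. A further small cluster of 24 and 26 cells, led by *Acta2* as well, held *Kcnj8* at 207 and 176 CPM. Its *Myh11* stood at 1052 and 879 CPM, between the larger clusters. Its *Vtn*, a leading gene of the *Rgs5* cluster, stood at 1270 and 1637 CPM. The larger clusters held *Vtn* at 1475 and 1511 CPM (*Rgs5*) and at 133 and 176 CPM (*Acta2*). The 165 and 140 CPM of *Kcnj8* given for mural cells thus average clusters that lie far apart.

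Both nmSC clusters were led by *Scn7a*, a sodium channel gene of nmSCs, at 756 and 846 CPM in one and at 3446 and 3715 CPM in the other. In the cluster with more *Scn7a*, *Kcna1* stood at 1808 and 1972 CPM against 930 and 1043 CPM, and *Kcna2* at 748 and 723 CPM against 335 and 312 CPM. *Kcnj10* had the opposite order there, at 98.2 and 103 CPM against 134 and 133 CPM, as did *Kcnj16*, at 2.79 and 3.97 CPM against 13.0 and 15.6 CPM. Of the 840 cells in the cluster with less *Scn7a*, 73 lay in SGC clusters of the clustering that named the types, and their part in these values was not tested.

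For SGCs the 4 clusters of the coarser clustering that named the types are given, since 1083 of the 7701 cells in finer clusters named SGC lay in a cluster that stayed unnamed there. *Kcnj10* ranged from 196 to 317 CPM over clusters and replicates. *Kcna1* ranged from 24.1 and 30.5 CPM in the larger of the 2 clusters led by 2900052N01Rik, which held *Hes5*, a Notch target, at 132 and 276 CPM, to 146 and 153 CPM in the cluster led by *Cxcl10*, a chemokine gene, with *Hes5* at 38.3 and 58.7 CPM. Between the same clusters *Kcna6* stood at 56.3 and 54.6 CPM against 139 and 145 CPM, and *Kcnh8* at 310 and 305 CPM against 516 and 463 CPM. *Kcnj16* had the reverse order, 43.8 and 40.3 CPM against 25.8 and 28.6 CPM. In the smaller cluster led by 2900052N01Rik, *Hes5* stood at 98.2 and 172 CPM and *Kcna1* at 77.4 and 87.3 CPM. *Kcna6* stood there at 140 and 149 CPM and *Kcnh8* at 418 and 382 CPM. The cluster led by *Dbi* had the least *Hes5*, at 18.0 and 37.2 CPM, and *Kcna1* at 127 and 140 CPM. Its *Kcna6* was at 141 and 140 CPM and its *Kcnh8* at 438 and 437 CPM. *Kcna6* thus did not follow *Hes5* over the 4 clusters, and a link with *Hes5* was not tested.

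In the same clustering, one cluster of 867 and 787 cells carried too few markers of a class and stayed unnamed. It was led by *Pou3f1*, a transcription factor of promyelinating Schwann cells, and held *Kcnj10* at 196 and 186 CPM, *Kcna1* at 352 and 391 CPM, *Kcna6* at 175 and 187 CPM and *Kcnh8* at 572 and 562 CPM. In CPM within clusters, without TMM scaling, it lay between the SGC and the Schwann clusters on *Kcna1*. On *Kcnj10* it lay close to the lowest SGC cluster, at 199 and 196 CPM, and above the nmSC cluster, at 117 and 115 CPM. Since it entered no comparison, the SGC values given here leave these cells out.

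**Figure D3:**
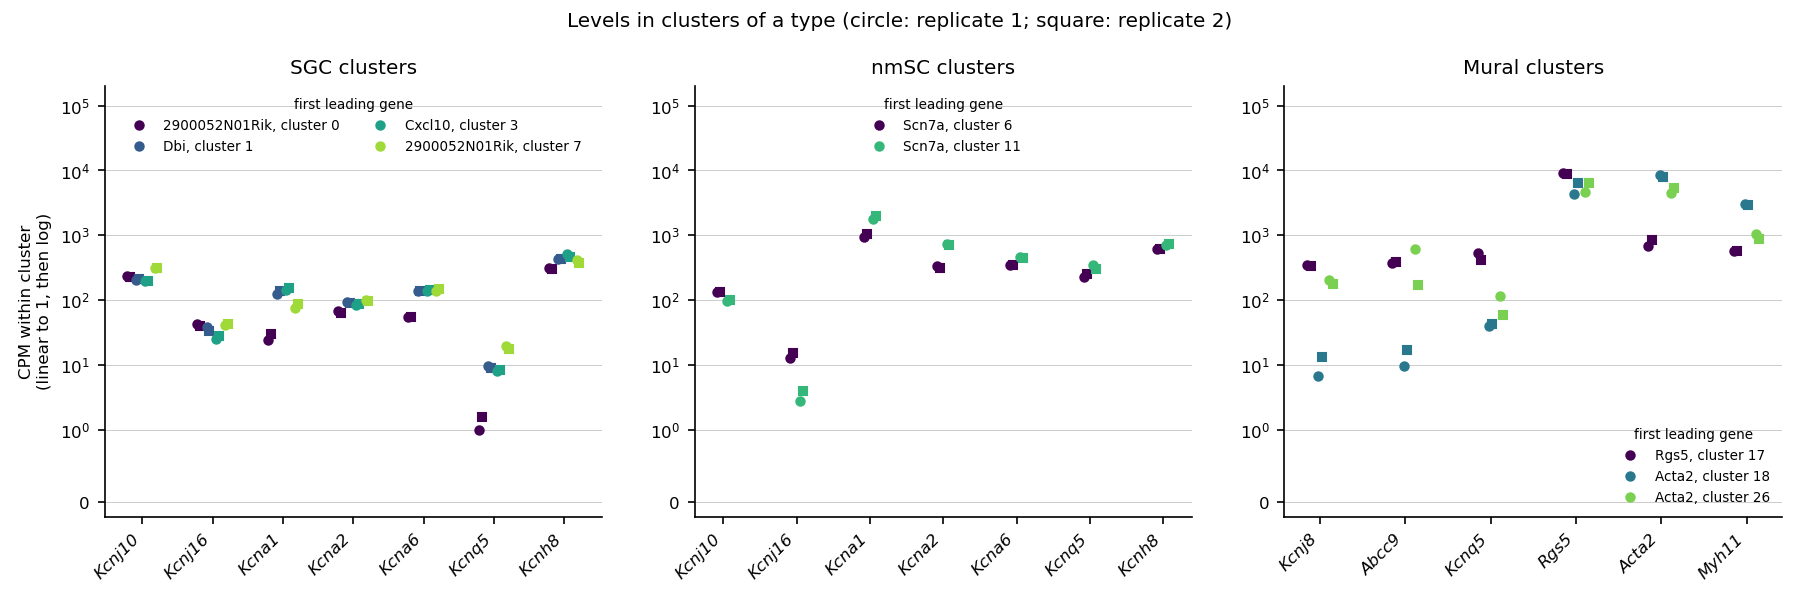
CPM in the clusters of SGCs (coarser clustering) and of nmSCs and mural cells (finer clustering), on an axis linear up to 1 and logarithmic above; colours mark clusters by their first leading gene, circles replicate 1 and squares replicate 2. *Kcnj10* stays close together across the SGC clusters where *Kcna1* spreads, and *Kcnj8*, *Abcc9* and *Kcnq5* are high in the mural cluster led by *Rgs5*.

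Shares of cells with at least 1 UMI were taken after thinning every cell to 3000 UMIs, which left out 534 cells below that depth, among them 276 mSCs, 93 nmSCs, 30 mural cells and 14 SGCs. Exact 95% binomial (Clopper-Pearson) intervals are given and cover counting error only. *Kcnj10* was found in 47.5% of SGCs (46.3 to 48.7%), 28.1% of nmSCs (25.6 to 30.7%) and 6.82% of mSCs (5.93 to 7.81%), and in 2.66% of mural cells (1.59 to 4.18%). Before thinning the shares were 91.3% in SGCs and 6.23% in mural cells, at median depths of 15199.5 and 8559 UMIs.

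*Kcnj16* was found in 9.80% of SGCs (9.10 to 10.5%, 39.7% unthinned) and 2.69% of nmSCs, against 0.415% of fibroblasts. *Kcna1* was found in 95.7% of mSCs, 92.2% of nmSCs and 22.0% of SGCs, against 3.23% of fibroblasts, and *Kcna2* in 69.0% of nmSCs, 54.8% of mSCs and 21.4% of SGCs, against 1.74% of fibroblasts. *Kcna6* was found in 66.9% of nmSCs, 29.5% of SGCs and 7.73% of mSCs, against 2.24% of fibroblasts. *Kcnh8* reached 75.0% of nmSCs and 60.2% of SGCs, against 11.2% of mSCs and 3.23% of fibroblasts. *Kcnq5* was found in 31.8% of nmSCs (29.3 to 34.5%), 30.3% of mural cells (26.9 to 33.9%) and 26.6% of neurons (18.6 to 35.9%), with intervals that overlap, and in 1.60% of SGCs. Fibroblasts had a median of 12453.5 UMIs before thinning and nmSCs 5893, and the unthinned shares of nmSCs were 96.9% for *Kcna1*, 88.1% for *Kcna2*, 84.6% for *Kcna6*, 40% for *Kcnq5* and 85.1% for *Kcnh8*.

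*Kcnj8* was found in 30.5% of mural cells (27.0 to 34.1%, 45.2% unthinned) and in 1.28% of endothelial cells (0.416 to 2.96%). In SGCs 3 of 6706 cells held a UMI (0.0447%). In nmSCs 0 of 1263 cells did, which allows a share of up to 0.238%, in neurons 0 of 109, which allows up to 2.75%, and in macrophages 0 of 353, which allows up to 0.85%. These limits are 3 divided by the number of cells. The exact intervals reach further, to 0.292% in nmSCs and 3.33% in neurons.

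Pairs of genes were then read in the same cells at 3000 UMIs. Among mural cells with a UMI of *Kcnj8*, *Abcc9* was found in 61.7% (52.4 to 70.4%) in replicate 1 and 53.5% (42.4 to 64.3%) in replicate 2, against 20.2% and 21.2% of those without. *Kcnq5* was found in 56.7% and 46.5% of the cells with *Kcnj8*, against 21.7% and 19.3% of those without. Inside the cluster led by *Rgs5* the contrast was smaller and its intervals overlapped, with *Abcc9* in 62.0% and 59.5% against 44.3% and 49.2%. *Kcnq5* was found there in 61.1% and 50% against 48.9% and 42.9%. For these pairs a cell needed the name mural in the coarser clustering and the label of this finer cluster (196 and 137 cells). The cell filters of the finer clustering were not applied. In the larger cluster led by *Acta2* only 3 of 158 and 6 of 137 cells held *Kcnj8*.

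In SGCs the share with *Kcnj10* was about the same with or without a UMI of *Kcnj16*, 47.7% against 47.3% in replicate 1 and 49.2% (43.6 to 54.9%) against 47.4% (45.6 to 49.2%) in replicate 2. *Kcna1* in nmSCs was found in 94.4% and 94.8% of cells with *Kcna2* and in 84.7% and 88.8% of those without. In mSCs these shares were 96.0% and 96.7% against 94.5% and 95.4%. Cells with both Kv1 genes made up 64.0% and 66.4% of nmSCs and 53.8% and 51.8% of mSCs.

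**Figure D4:**
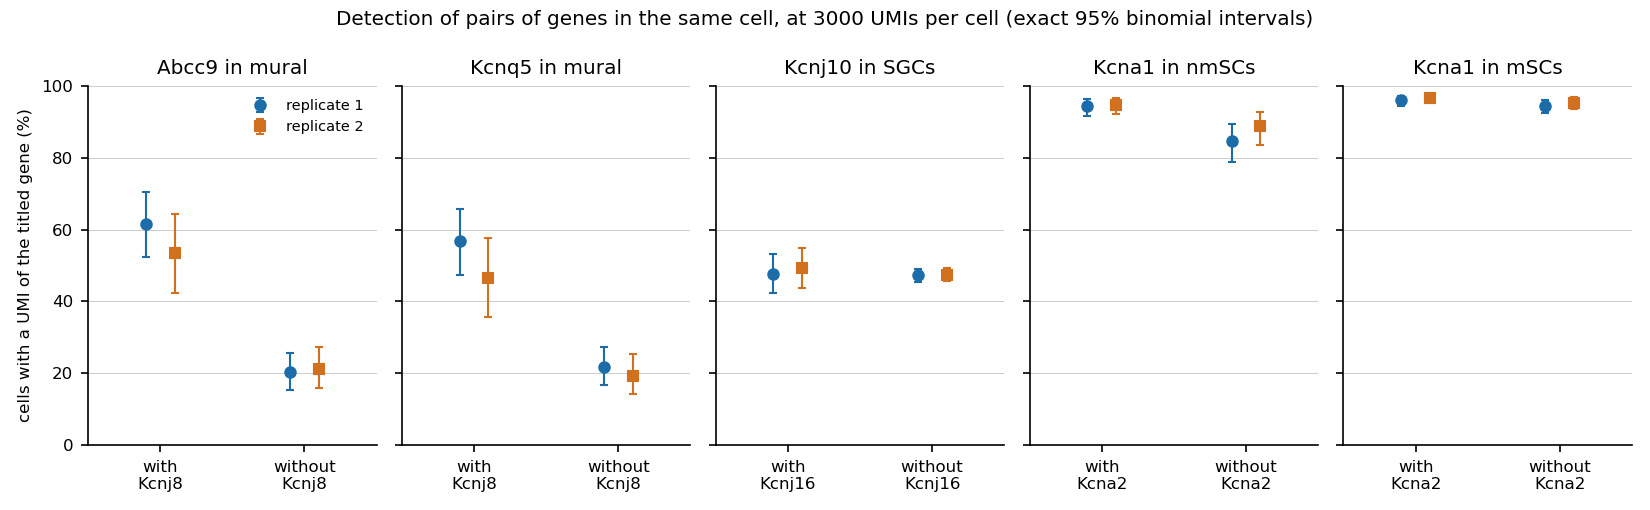
Percent of cells with a UMI of the titled gene among cells with and without a UMI of the named partner, at 3000 UMIs per cell, with exact 95% binomial intervals; circles are replicate 1 and squares replicate 2. *Abcc9* and *Kcnq5* in mural cells are more frequent where *Kcnj8* was found, while *Kcnj10* in SGCs is at 47.3 to 49.2% whether *Kcnj16* was found or not.

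Genes with the most similar pattern were named by Pearson's r of log2(CPM + 1) over the 15 retained clusters, among 11408 genes. The clusters share libraries and differ in depth, so r is a description. For *Kcnj10* these were *Grid1* (r = 0.973), *Lrrc4b* (0.971) and *Ednrb* (0.969), and for *Kcnj16* *Mmd2* (0.987), *Fabp7* (0.985) and *Kcnn4* (0.983). *Kcnj8* was most like *Pdlim3* (0.985), *Ndufa4l2* (0.975) and *Gja4* (0.970). *Kcna1* was most like Gm13403 (0.986), *Mvb12b* (0.952) and *Cntf* (0.945), and *Kcna6* like *Sema3e* (0.965), with *Kcnh8* next (0.952). *Kcnh8* itself was most like *Sox3* (0.982). *Kcnq5* had no gene above 0.839, the value of *Adprm*.

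*Kcnq5* spans 563540 bases of chromosome 1 (chr1:21398403-21961942, minus strand), and 4 annotated genes overlap it, while 1 overlaps *Kcna6* and none the other members. Reads from an overlapping gene cannot be told apart where the counting does not use strand, which is not given in the sources used here.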

How the data were processed

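The authors sequenced 3′ libraries made on the 10x Chromium, with alignment to mm10 and UMI counting in Cell Ranger, as the paper's methods and the submitters' processing notes give it, and deposited raw UMI counts for all barcodes, unfiltered and not normalized. From these counts cells were called per sample along Cell Ranger's steps, with at least 500 UMIs and a false discovery rate of 0.01 against the RNA of barcodes ranked 45000 to 90000, and needed over 300 genes. On simulated barcodes of 500 to 1500 UMIs this step called at most 0.05% of empty droplets, and 36.0% (replicate 1) and 46.5% (replicate 2) of cells, so shallow cells can be missed. They were clustered with SCTransform in Seurat 5.3.0 under R 4.3.3 on 3000 variable genes, 30 components and a resolution of 0.8, after the 101 potassium channel genes were set aside.

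A cluster took a name from at least 3 fixed markers among its 50 leading genes. Clusters high in mitochondrial RNA, with a mean under 1000 genes or with over 50% doublet-like cells were removed, 902 cells in all, and doublets only as clusters. Most of the removed cells were neuron-like. The cluster removed for few genes (422 cells) and the mitochondrial one (268 cells) each had 8 neuron markers among their leading genes. Values for neurons leave these cells out. The UMI cutoff of the median plus 5 MAD was set within each cluster, not over all cells as the study did, since the cutoff over all cells kept 19 of 109 neurons.

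UMIs were summed per sample and type and tested with edgeR 4.0.16 (TMM, at least 10 counts in at least 2 profiles, quasi-likelihood test), with DESeq2 1.42.0 as an alternative. The fit was also run on counts simulated from its own estimates of spread, with few genes changed. That run cannot show whether the pooled spread or the TMM scaling holds for these profiles. Same-numbered profiles come from the same dissociation, which pairs them by origin, and their deviations correlated with a median r of 0.0379 (28 pairs of types, 1 above 0.1). The replicates were not copies (chi-square of 13.2 per degree of freedom over 19240 genes). Profiles held between 1988266 and 53281278 UMIs, with the fewest in macrophages of replicate 2. The relative counting error of a gene depends on its own UMIs in a profile. *Kcnj16*, for example, had 8 and 10 UMIs in macrophages and 9 and 2 in mural cells.

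Genes named beyond the members are the fixed partner lists, the list genes with the largest log2 difference per direction (at most 4) with at least 20 CPM in both samples of the higher type, and the 3 genes most like each member. The members and lists were chosen with earlier results of these data known.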

Additional observations from a re-analysis of the deposited data

How the results depend on the processing

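Fold changes of members were recomputed for 51 differences, those with at least 40 CPM in the higher type or 5 CPM between glia, a limit chosen after seeing the data. Of 696 values over 14 alternatives, 651 kept their call or stayed within the error, 38 moved, all of them with a sample left out, and 7 gained a call. The difference of *Kcnh8* between SGCs and nmSCs passed with no filter on low counts (-0.46, adjusted p = 0.0363), the replicate block (-0.52, 0.0363), cells called from UMI totals alone (-0.53, 0.0465) and, both chosen after seeing the data, one UMI cutoff over all cells (-0.54, 2.84e-05) and shallow neuron-like droplets counted as neurons (-0.52, 0.0305). *Kcnq5* between SGCs and mSCs passed at a resolution of 0.4 (0.89, 0.0074) and without doublet-like cells (0.82, 0.027). The cause was not tested. The replicate block changed no other call on these differences, and below that limit it added *Kcnj8* between SGCs and mSCs (-1.94, 0.0403). All 210 counts of list genes stayed within 1.5 times, and DESeq2 moved the median of all genes by -0.11 for SGCs against neurons and by 0.12 for mural cells against SGCs.

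With 1 sample left out there is no test, and ranges over the samples were: *Kcnj16*, 5.33 to 6.51 in SGCs against mSCs, -4.17 to -2.83 in mSCs against nmSCs, -5.90 to -4.04 in mural cells against SGCs and 4.15 to 5.81 in SGCs against neurons; *Kcnj8*, 10.04 to 11.38 in mural cells against SGCs; *Kcnq5*, 4.37 to 5.96 in mural against endothelial cells and 4.55 to 4.98 in mural cells against SGCs. For *Kcnj10* against neurons they were 4.19 to 4.80 in SGCs and 2.94 to 3.55 in nmSCs. For *Kcna1* they were -2.04 to -1.30 in mural cells against SGCs, and against neurons 1.89 to 3.79 in SGCs, 5.84 to 7.70 in mSCs and 5.67 to 7.46 in nmSCs. For *Kcna6* they were -4.07 to -3.28 in mural cells against SGCs, and against neurons 1.06 to 1.60, -0.92 to -0.39 and 2.70 to 3.23 in the same 3 glia. For *Kcnh8* against neurons they were 2.46 to 3.60, -0.65 to 0.76 and 2.91 to 4.18.

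Shares of cells with a UMI depend on the depth. Thinned to 1000 and to 5000 UMIs they were 19.2% and 65.0% for *Kcnj10* and 3.18% and 16.0% for *Kcnj16* in SGCs, 13.9% and 38.7% for *Kcnj8* in mural cells, 72.0% and 98.8% for *Kcna1* in mSCs, and in nmSCs 39.1% and 81.7% for *Kcna2*, 32.7% and 81.3% for *Kcna6*, 17.9% and 40.9% for *Kcnq5* and 44.0% and 85.5% for *Kcnh8*. Without doublet-like cells *Kcna6* was at 67.1% and *Kcnq5* at 32.4%. With 109 neurons and 353 macrophages, absent UMIs of *Kcnj8* limit shares only loosely, and the single UMI cutoff left 19 neurons, too few for profiles.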

Other observations

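Some genes of the potassium channel list were higher in fibroblasts than in mural cells in the edgeR fit. The K2P gene *Kcnk2* stood at 121 and 109.5 CPM in fibroblasts and at 5.95 and 6.58 CPM in mural cells (18.4-fold, adjusted p = 1.38e-12), and *Kcnk5*, of the same family, at 68.9 and 59.6 CPM against 3.12 and 3.95 CPM (18.2-fold, adjusted p = 2.63e-11). *Kcnj2*, a strong inward rectifier, stood at 39.3 and 35.1 CPM against 2.27 and 1.98 CPM (17.3-fold, adjusted p = 4.34e-09). Within fibroblasts, *Kcnq5* stood at 49.8 and 46.5 CPM in the cluster led by *Ecrg4* and at 4.25 and 4.52 CPM in the one led by *Apod*, values that describe clusters cut from the same cells and carry no test.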
